A study of Arabidopsis thaliana with 4 samples.

Results

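The IQD proteins are a plant family named for a domain built of repeated IQ motifs, which bind calmodulin, the main calcium sensor of plant cells. They are regarded as scaffolds that place calmodulin and other partners on cortical microtubules, at the plasma membrane and in the nucleus. In Arabidopsis, IQD1 binds the kinesin light chain-related protein KLCR1, IQD5 acts in the shape of leaf pavement cells, and IQD13 in the pits of xylem vessel walls. Their expression in flowers is described here in Arabidopsis thaliana inflorescences that lack the function of APETALA3, a MADS-box factor that specifies petals and stamens. Members were taken as probes that the platform annotation assigns to 1 gene whose reference symbol is IQD followed by a number. Of 33 IQD genes in the reference table, 7 had such a probe, and all 7 were measured on all 4 arrays (IQD15, IQD19, IQD20, IQD22, IQD25, IQD32 and IQD33). They stand among 5303 named genes and 25588 genes and further probes tested. A further 10 IQD genes appeared only in probes listing several family members, and the other 16 (IQD1 to IQD14, IQD17 and IQD18) were not analysed here.

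Total RNA of apetala3 inflorescences and of wild-type inflorescences was hybridised together on each of 4 two-channel arrays. The mutant RNA was in channel 1 of arrays 1 and 3 and in channel 2 of arrays 2 and 4. The labels name no allele, ecotype, plant age or number of plants. Nothing in them shows that the arrays hold RNA of separate plants, so a p-value here covers the spread among arrays and no more, and that spread may be technical. Values are given on the log2 scale as apetala3 divided by wild type, and the number of arrays limits their precision. The labels do not name the numerator of the deposited ratios. The direction used here is therefore only likely. It rests on anther genes being lower in a mutant that is known to form carpels in place of stamens. Of 6 measured tapetum and pollen wall markers out of 22 listed, 5 were lower and 0 higher (limma adjusted p under 0.05), with a median of -2.93. EMS1, the sixth, was at 0.073. Of all features tested, 10.1% were lower and 8.43% higher at that threshold. The marker list was used to choose the direction, so its lower values are no separate evidence for it. With the sign turned, every higher and lower below is exchanged.

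IQD19 (AT4G14750) was the member that fell. Its log2 ratios were -0.61, -0.64, -1.13 and -1.22 on arrays 1 to 4. All 4 values lay below 0 and below the median of all gene probes of their array, which was between 0.075 and 0.12. The mean was -0.90 ± 0.15 (limma SE, n = 4 arrays, limma adjusted p = 0.0139), a 1.87-fold lower level with a 95% confidence interval of 1.45-fold to 2.40-fold. Over all features, 10.1% were called lower at the same threshold, a limma adjusted p under 0.05. Without arrays 1 and 2 in turn that share was 5.39% and 5.96%. Within the distribution of each array, IQD19 stood at percentiles 11.2, 13.6, 8.66 and 4.94. Of the named genes, 351 had a lower mean, 6.62% of all. In RNA from whole inflorescences, fewer cells that express a gene and less RNA per cell cannot be told apart.

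The decrease was seen in both channel orientations. IQD19 averaged -0.87 over the arrays with apetala3 in channel 1 and -0.93 over those with it in channel 2. The difference between the orientations was 0.052 ± 0.32 (limma SE, 95% confidence interval -0.79 to 0.89, limma adjusted p = 0.982). With 2 arrays a side that interval is wide. Leaving out any 1 array gave means between -0.996 and -0.795, each past the threshold, with limma adjusted p-values of 0.0323 to 0.0494. Centred on the array medians, the mean was -1.001 (limma adjusted p = 0.00869).

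**Figure D1:**
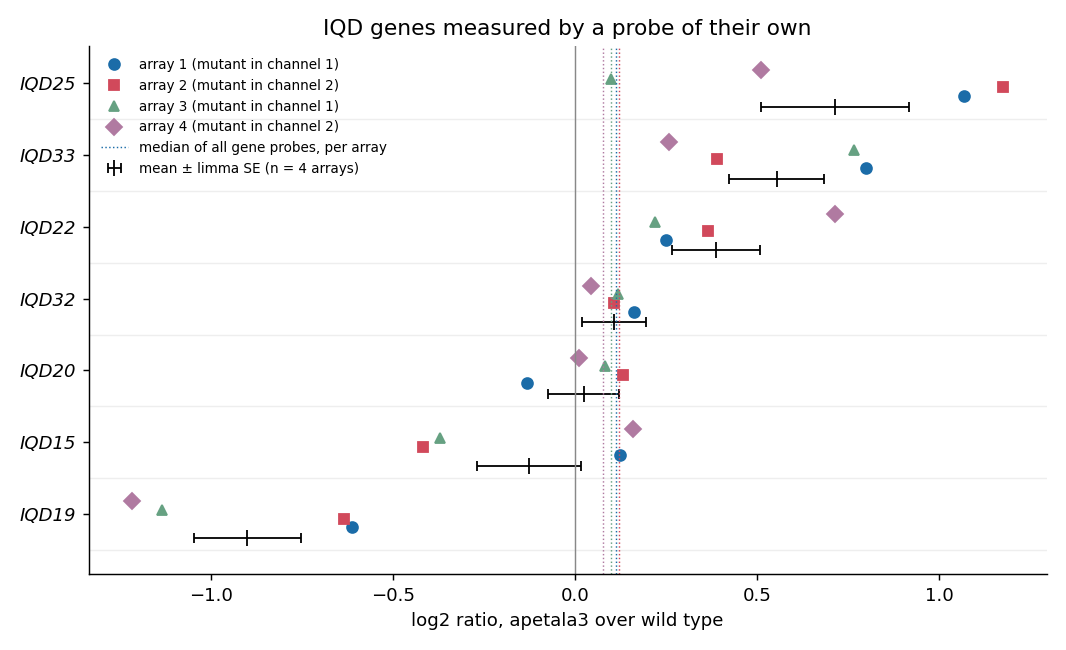
Log2 ratio of apetala3 over wild type (horizontal axis) of the 7 IQD genes with a probe of their own, with 1 symbol per array, the mean ± limma SE below them, and dotted lines at the median of all gene probes of each array. IQD19 lies between -1.22 and -0.61 on the 4 arrays, IQD33 between 0.26 and 0.80, and IQD32 close to the array medians.

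IQD33 (AT5G35670) was the only one of the 7 genes past the threshold in the other direction. It had values of 0.80, 0.39, 0.77 and 0.26 on arrays 1 to 4. All 4 were above 0 and above the median of their array, and those of arrays 1 and 3 were the higher pair. The mean was 0.55 ± 0.13 (limma SE, n = 4 arrays, limma adjusted p = 0.0415), or 1.47-fold, with a 95% confidence interval of 1.17-fold to 1.84-fold. The share of all features called higher was 8.43%, and without arrays 1, 2 and 3 in turn it was 1.12%, 1.71% and 3.11%. The higher pair are the arrays with apetala3 in channel 1, at a mean of 0.78 against 0.32 with it in channel 2, a difference of 0.46 ± 0.18 (limma SE, 95% confidence interval -0.032 to 0.95, limma adjusted p = 0.731). The call was lost when each array was centred on its median, where the mean was 0.45 (limma adjusted p = 0.0748), and without any 1 of arrays 1, 2 and 3, with means of 0.47, 0.61 and 0.48.

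IQD25 and IQD22 had positive values on every array without passing the threshold. IQD25 (AT4G29150) had 1.07, 1.18, 0.098 and 0.51 on arrays 1 to 4, the highest mean and the widest spread of the 7 genes. On array 3 it lay at the median of the array, and on arrays 1 and 2 above 97.7% and 97.2% of features. Its mean was 0.71 ± 0.20 (limma SE, n = 4 arrays, 95% confidence interval 0.21 to 1.22, limma adjusted p = 0.0646). Without array 3 the mean was 0.92 and passed the threshold (limma adjusted p = 0.0410). IQD22 (AT4G23060) had 0.25, 0.37, 0.22 and 0.71, with array 4 the highest. Its mean was 0.39 ± 0.12 (limma SE, n = 4 arrays, 95% confidence interval 0.087 to 0.69, limma adjusted p = 0.0786).

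These 3 positive means lay in the range of spots that carry no probe. Empty spots with values on at least 3 arrays numbered 179, and the quartiles of their means were 0.18 and 0.90 around a median of 0.53. Of them, 88 (49.2%, 95% Clopper-Pearson interval 41.6 to 56.7, counting error only) were at least as high as IQD33, against 8.18% of named genes. For IQD25 the count was 61 (34.1%), and for IQD22 it was 115 (64.2%). Over all empty spots measured on an array (273, 170, 274 and 152 on arrays 1 to 4), the medians were 0.76, 0.56, -0.27 and 0.84. On array 3, the array on which the median of empty spots was negative, IQD33 was at 0.77, while IQD22 and IQD25 had their lowest values, 0.22 and 0.098. For IQD19, 9 empty spots (5.03%, interval 2.32 to 9.33) were at least as low, against 6.638% of named genes. The part of an offset of weakly hybridised spots in the positive values was not tested, since the deposited table holds no intensities.

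**Figure D2:**
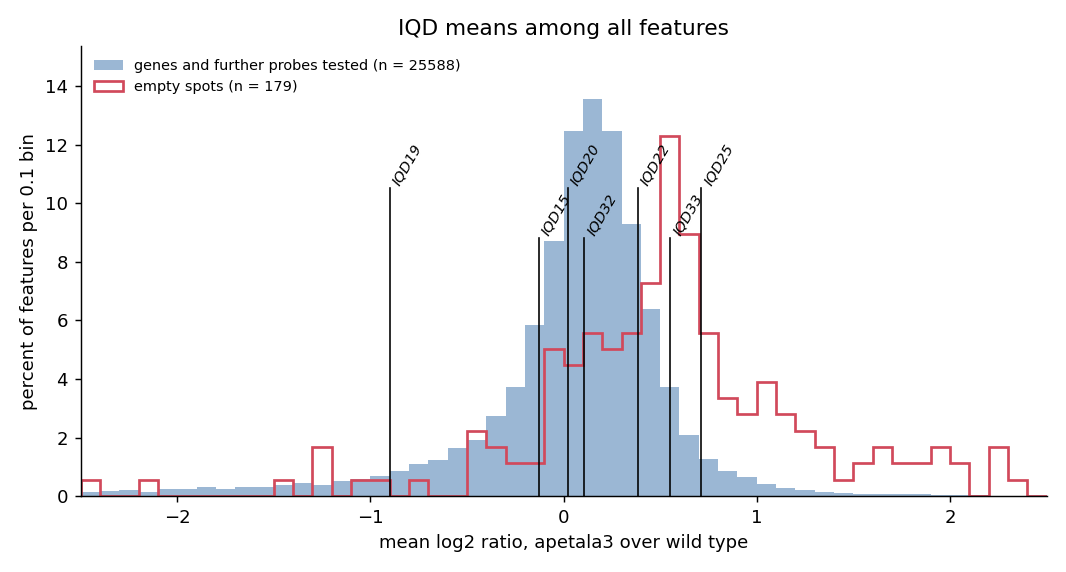
Distribution of mean log2 ratios of apetala3 over wild type (horizontal axis, bins of 0.1) for 25588 genes and further probes and for 179 empty spots, as percent of each (vertical axis), with a line at the mean of each IQD gene. Means beyond 2.5 on either side, 608 features and 3 empty spots, are not drawn. IQD19 lies in the lower tail of the features, and IQD22, IQD33 and IQD25 lie where empty spots are frequent.

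The remaining 3 members, IQD32, IQD20 and IQD15, did not pass the threshold. IQD32 (AT1G19870) had the narrowest spread, with 0.16, 0.11, 0.12 and 0.043 on arrays 1 to 4 and an SD of 0.049. Its mean of 0.11 ± 0.088 (limma SE, n = 4 arrays) had a 95% confidence interval of -0.11 to 0.33, and centred on the array medians it was 0.0063. IQD20 (AT3G51380) had -0.13, 0.13, 0.082 and 0.011. Its mean of 0.023 had a confidence interval of -0.22 to 0.26, and with centring it was -0.078, so it has no settled sign. IQD15 (AT3G49380), with 0.12, -0.42, -0.37 and 0.16, was above 0 on arrays 1 and 4 and below 0 on arrays 2 and 3, a division that does not follow the channels. Its mean was -0.13 ± 0.14, with a confidence interval of -0.48 to 0.23, and 22.2% of named genes had a lower mean. A change in these genes is not shown to be absent.

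The 7 genes together had 1 higher, 1 lower and 5 not past the threshold. Of all features tested, 8.43% were called higher and 10.1% lower. Their median was 0.11, against 0.14 for all named genes and 0.11 for all features tested. On single arrays their median was 0.16, 0.13, 0.098 and 0.16, against 0.12, 0.14, 0.13 and 0.088 for all named genes. With each array centred, 4.16% of features were called higher and 11.4% lower, and of the IQD genes 0 were higher and 1, IQD19, was lower.

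Differences between members on the same array do not depend on how an array was centred. In order of the mean, from low to high, the genes stood as IQD19, IQD15, IQD20, IQD32, IQD22, IQD33 and IQD25. IQD19 was below each of the other 6 on all 4 arrays. The smallest such difference was to IQD15, which was higher than IQD19 by 0.77 ± 0.47 (SD, n = 4 arrays), with 0.22 on array 2 and 1.38 on array 4. The largest was to IQD25, by 1.61 ± 0.26. IQD33 was above IQD19 by 1.45 ± 0.36. Among the other neighbours in the order, IQD22 exceeded IQD32 on all 4 arrays, by 0.28 ± 0.27 (SD, n = 4 arrays). IQD15 and IQD20, IQD20 and IQD32, IQD22 and IQD33, and IQD33 and IQD25 each changed places on at least 1 array, with SDs larger than the mean difference. These differences between members are a description, and no test of them was run.

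A further 9 probes listed several IQD genes and no gene of another family, standing for 7 sets of genes. None passed the threshold (limma), while 4 had an unadjusted p under 0.05, and 8 of the 9 means were above 0. Of all features tested, 36.7% had an unadjusted p under 0.05 and 64.4% a mean above 0. The signal of such a probe cannot be divided among its genes. The probe listing IQD19, IQD22, IQD25, IQD26 and IQD27 had -0.038, 0.23, 0.14 and 0.25 on arrays 1 to 4 and a mean of 0.15 ± 0.099 (limma SE, n = 4 arrays, limma adjusted p = 0.325). The own probe of IQD19 was lower than it on all 4 arrays, with a mean difference of -1.05 ± 0.40 (own minus shared, SD, n = 4 arrays), so the decrease of IQD19 was not seen in the probe it shares with the other 4 genes.

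IQD16, known as ABS6, acts in the severing of cortical microtubules and shares a probe with IQD15. That probe had 0.39, 0.20, 0.50 and 0.89, with a mean of 0.50 ± 0.14 (limma SE, n = 4 arrays, limma adjusted p = 0.0608). The own probe of IQD15 lay below it on all 4 arrays, with a mean difference of -0.62 ± 0.26 (SD, n = 4 arrays). Both probes listing IQD23 and IQD24 were above 0 on every array, with means of 0.44 and 0.33, and the probe of IQD26 and IQD27 likewise with 0.36 (limma adjusted p-values of 0.0847, 0.0821 and 0.0794). On array 4 the probe of IQD26 and IQD27 was at 0.068, below the median of that array, 0.075. These means also lay below the median of the empty spots, 0.53. The probe of IQD20 and IQD21 had the lowest mean, -0.23, with array 2 alone above 0. That of IQD30, IQD31 and IQD32 had values from -0.32 to 0.59.

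The 2 probes listing IQD28 and IQD29 disagreed. One had 2.11, -0.18, 0.48 and 3.18 on arrays 1 to 4, a mean of 1.40 ± 0.57 (limma SE, limma adjusted p = 0.140). The other had 0.47, 0.47, 0.11 and -0.13, a mean of 0.23. Their difference of 1.17 ± 1.71 (SD, n = 4 arrays) had an SD above its mean. The high values on arrays 1 and 4, which belong to opposite orientations, were thus carried by 1 probe.

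**Figure D3:**
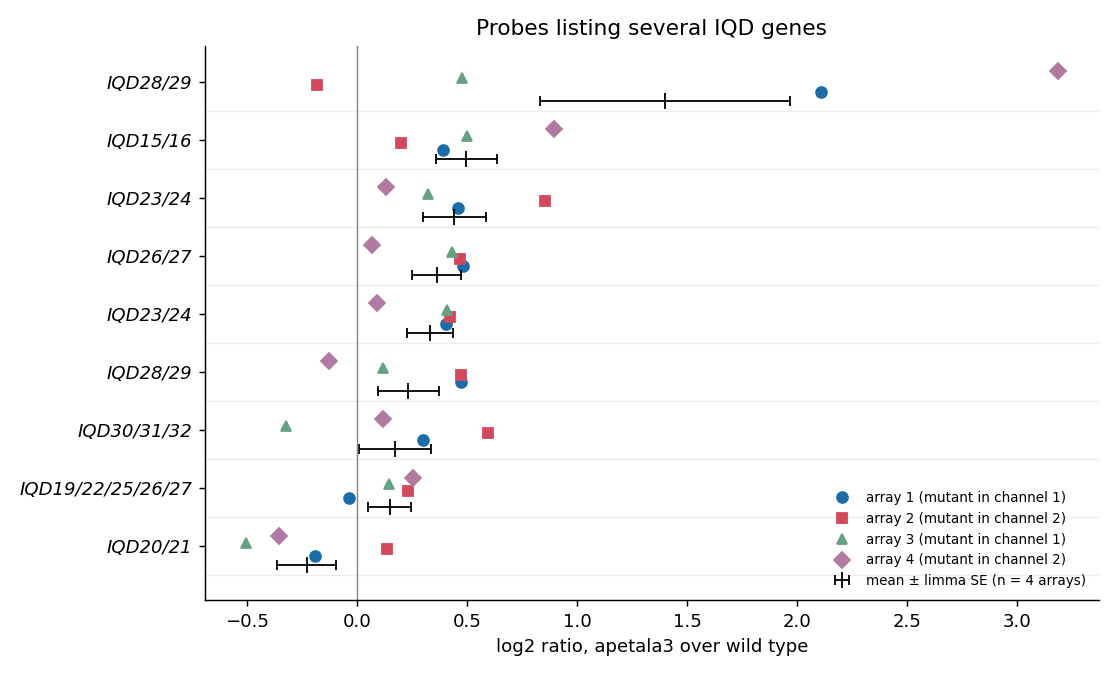
Log2 ratio of apetala3 over wild type (horizontal axis) of the 9 probes that list several IQD genes, named by those genes, with 1 symbol per array and the mean ± limma SE below them. Of the 9 means, 8 lie above 0, as do 64.4% of all features tested, and 1 of the IQD28 and IQD29 probes reaches 3.18 on array 4 while the other is at -0.13 there.

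Few genes in the lists of calmodulins, IQ-motif proteins, microtubule proteins, calcium-dependent kinases and ROP signalling were measured by a probe of their own. Beside the counts below stand the shares of all features tested, 8.43% called higher and 10.1% lower. Of 20 calmodulins and calmodulin-like proteins, 2 were measured and 0 passed the threshold (limma). CML41 had a mean of 0.61 and CML30 of 0.079, with unadjusted limma p-values of 0.0463 and 0.450 (limma adjusted p = 0.130 and 0.586). The values of CML41 were 1.22, 0.79, 0.69 and -0.24 on arrays 1 to 4. Of 39 IQD partners and other proteins with IQ motifs, among them the KLCR proteins, CAMTA factors, cyclic nucleotide-gated channels and myosins, 2 were measured. Both are myosins of the class that moves organelles along actin. XIJ fell, with -0.68, -0.61, -0.32 and -0.61 on arrays 1 to 4 and a mean of -0.55 ± 0.10 (limma SE, n = 4 arrays, limma adjusted p = 0.0221). Without any 1 of arrays 1, 2 and 4 it was no longer past the threshold, with means of -0.51, -0.54 and -0.53. Nor did XIJ pass with apetala3 in channel 1 alone (limma adjusted p = 0.137) or in channel 2 alone (limma adjusted p = 0.187). XI-I had a mean of 0.33 (limma adjusted p = 0.0793). Of 45 tubulins and microtubule proteins, 5 were measured, with 1 lower and 0 higher. TUA1, which encodes a pollen alpha-tubulin, fell to a mean of -0.44 ± 0.11 (limma adjusted p = 0.0408). That call was lost without any 1 of arrays 1, 2 and 3, with means of -0.44, -0.43 and -0.39. Nor did it pass with a channel term in the fit (limma adjusted p = 0.0569), with values at the 100-fold limit kept (limma adjusted p = 0.0520) or with either orientation alone. TUA6, TUB6, TUB7 and SPR1, a regulator of directional cell growth, had means between -0.13 and 0.13. None of 70 calcium-dependent kinases, CBL and CIPK proteins and none of 37 ROP signalling proteins was measured by name.

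Some markers of floral cell types changed as well, and their part in the values of IQD19, IQD33, XIJ and TUA1 was not tested. The log2 ratios of the 6 tapetum and pollen wall markers summed to -16.9, -13.1, -15.6 and -11.8 on arrays 1 to 4. These sums were lowest on array 1, whereas IQD19 was lowest on array 4. That place of array 1 among the sums rests on ATA27. Its value there was -6.53, close to the limit beyond which values were treated as not measured. On arrays 2 to 4 ATA27 had -2.90, -3.22 and -3.75. The 1 of 13 pollen markers measured was TUA1, already given among the microtubule proteins, between -0.61 and -0.22. The 2 of 18 carpel and ovule markers measured summed to 1.69, 2.65, 1.71 and 2.17, lowest on arrays 1 and 3, where IQD33 was highest. They were CES, a factor of the transmitting tract, which rose by 1.85, and INO, of the outer ovule integument, at 0.20. The decrease of IQD19 was smaller than that of 4 tapetum and pollen wall markers, ATA20, an anther gene at -2.76, SHT, an enzyme of spermidine conjugates at -3.11, SWEET8, an anther sugar transporter at -3.97, and ATA27, an anther beta-glucosidase at -4.10, and larger than that of SPL, a regulator of sporogenesis at -0.49. The call of SHT was lost without array 2, at -3.01, and that of ATA27 with limit values kept, at -2.45. Both calls were also lost with apetala3 in channel 1 alone (limma adjusted p = 0.0911 for SHT and 0.0509 for ATA27). The SPL call was lost without any 1 of arrays 1, 2 and 3, with means of -0.43, -0.53 and -0.46, and with either orientation alone.

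The named genes most like IQD19 over the 4 arrays, by Euclidean distance among 5143 others measured on all of them, were AT1G05020, AT1G09880 and AT3G54510, at distances of 0.27, 0.29 and 0.35. Their means were -0.80, -0.82 and -1.01. AT1G05020 had -0.40, -0.48, -1.12 and -1.20, with arrays 3 and 4 the lowest as for IQD19.

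**Figure D4:**
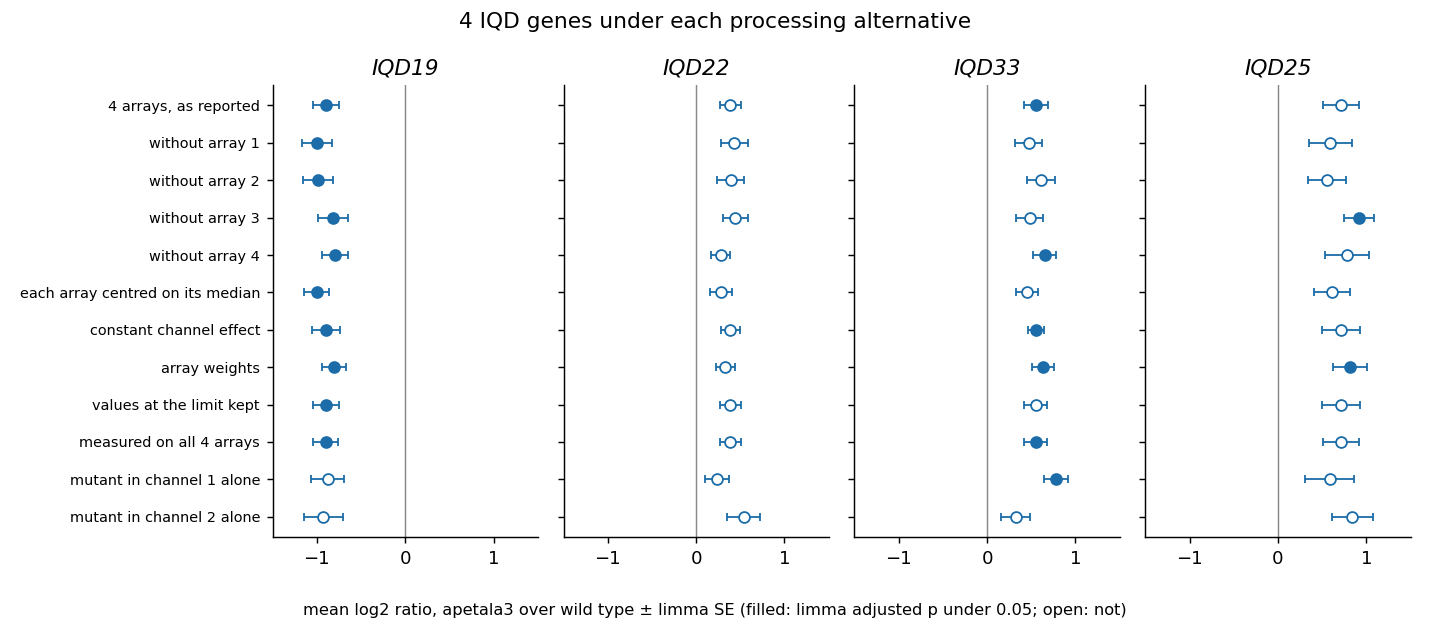
Mean log2 ratio of apetala3 over wild type ± limma SE (horizontal axes) of IQD19, IQD22, IQD33 and IQD25 as reported and under each of 11 alternatives (vertical axis), with filled points where the limma adjusted p was under 0.05. IQD19 stays between -1.001 and -0.795 and is filled except with 1 channel orientation alone, and IQD33 is filled under 5 of the 11 alternatives.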

How the data were processed

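Per array, the deposited table holds log2 ratios between its 2 channels, which the authors processed and normalized as in an earlier publication, per the labels. The log base was read from the values, which stop at the log2 of 100 on either side. No source used here gives the background correction, the normalization or the numerator. The ratios of arrays of opposite orientation correlated below 0 (median Pearson r of -0.70 across gene probes, over 4 pairs). Arrays 1 and 3 were multiplied by -1. Values of absolute size above 6.6438 were treated as not measured. Of 26474 gene probes, 5756 were matched by gene ID to 1 gene of the reference table (TAIR10.1), whose symbols were used and whose probes were averaged. Features measured on at least 3 arrays were tested against 0 with limma 3.58.1 in R 4.3.3 (lmFit, eBayes), with Benjamini-Hochberg adjustment over all 25588 and a threshold of 0.05. Confidence intervals come from the moderated t distribution. The procedure was tested on simulated data. The members and lists were chosen with earlier results of these data known. All IQD genes are named, and of each list those past the threshold or otherwise the 2 with the largest absolute mean. The other measured microtubule and marker genes complete their lists. Alternatives were leaving out an array, centring, a channel effect, array weights, limit values kept, 4 arrays required, 1 orientation alone and a threshold of 0.01.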

Additional observations from a re-analysis of the deposited data

Results flagged for a closer look

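Of 16 IQD genes and shared probes, 2 had a value on 1 array well apart from the rest, a number that chance alone would put at about 0.8. The probe listing IQD26 and IQD27 had 0.068 on array 4, against 0.43 to 0.48 elsewhere. A probe listing IQD23 and IQD24 had 0.091 on array 4, against 0.40 to 0.42 elsewhere.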

How the results depend on the processing

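IQD19 kept its direction under all 11 alternatives and passed the threshold under 9 of them. With 1 orientation alone it was at -0.87 with apetala3 in channel 1 (limma adjusted p = 0.0741) and -0.93 with it in channel 2 (limma adjusted p = 0.159). In either case 0 IQD genes were lower, against 6.81% and 3.15% of features tested. At a threshold of 0.01, 0 IQD genes were lower or higher, against 5.24% of features lower and 1.19% higher. IQD33 was not past the threshold with centring (0.45), with limit values kept (0.55, limma adjusted p = 0.0603) or in channel 2 alone (0.32), and leaving out 1 array gave 0.47 to 0.65. In these 3 settings 0 IQD genes were higher, against 4.16%, 5.48% and 0.306% of features tested. Leaving out 1 array gave 0 to 1, against 1.12% to 8.40% of features. Array weights gave 2, against 14.7% of features, with IQD25 past the threshold at 0.81. The IQD25 means without 1 array were 0.56 to 0.92. IQD20, which was not past the threshold in any setting, changed sign with centring (-0.078), array weights (-0.013) and channel 1 alone (-0.026), and ranged from -0.013 to 0.075 without 1 array. IQD15, IQD22 and IQD32 kept their sign and stayed short of the threshold throughout.

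Over all features, 4737 changed (2158 higher, 2579 lower), 1665 to 4693 without 1 array, where features needed at least 2 of the 3 arrays. Without arrays 1 to 4 in turn, 287, 438, 795 and 2149 were higher and 1378, 1524, 1869 and 2544 lower. The counts were 2224 and 869 with apetala3 in channel 1 or 2 alone and 1645 at a threshold of 0.01. Higher against lower was 1065 against 2905 with centring and 3751 against 3056 with array weights. The cause of these shifts was not tested. Each IQD gene had 1 probe, so using each probe alone gave no further value. Each array holds both genotypes, so the ratios tested were already paired within arrays and no further pairing was made.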
